A study of Mus musculus with 4 samples.

Results

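The genes described here belong to the IL-6/LIF cytokine and JAK-STAT3 pathway, read in cultures of vascular smooth muscle cells (VSMCs). They were taken by symbol from the deposited count table. They are the ligands *Lif*, *Il6* and *Il11*, the receptor chains *Il6st*, *Lifr* and *Osmr*, the kinases *Jak1* and *Jak2*, the transcription factor *Stat3* and its feedback inhibitor *Socs3*. All 10 genes were in the table of 48587 genes, and all 10 passed the filter on low counts that left 18916 genes to test. The study asked how the m6A RNA methyltransferase subunit Mettl14 affects the VSMC transcriptome. It sequenced poly-A RNA of primary cells from the descending aorta of young adult C57BL/6J mice, infected with a lentivirus that expressed either shCTR or shMettl14. The shCTR hairpin is directed against a plant microRNA sequence, so both groups carry a virus and a hairpin, and no uninfected cells were analysed here. Both shMettl14 libraries come from a single hairpin sequence. Each group has 2 libraries, which carry the letters A and B. The sources used here do not say what the letters mark, whether the cells of several animals were pooled, or whether the libraries of a group came from separate cultures, so the p-values below measure only the spread between these libraries.

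Cytokines of the IL-6 family bind receptor complexes that share the signalling chain gp130, the product of *Il6st*. The receptor activates Janus kinases, which phosphorylate STAT3, and STAT3 then enters the nucleus and induces its target genes. Among these targets is *Socs3*, whose product binds gp130 and the kinases and ends the signal. In the vessel wall IL-6 is a product of inflamed and injured smooth muscle, and the pathway is studied for its part in remodelling after injury.

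The targeted gene *Mettl14* (chr3:123368297-123386108, GRCm38, minus strand) had 18.1 and 19.9 CPM (counts scaled to the size of the library) in shCTR A and shCTR B, against 4.60 and 4.37 CPM in shMettl14 A and shMettl14 B. Both shMettl14 libraries were below both shCTR libraries, and the fitted difference on the log2 scale was -2.08 (standard error 0.248). The edgeR quasi-likelihood test gave it an unadjusted p of 0.00039 and a Benjamini-Hochberg adjusted p of 1.0, so the knockdown itself did not pass the test used for all genes, whereas DESeq2's Wald test gave an adjusted p of 2.0e-09. Totals ranged from 114343653 to 124815868 counts per library, and 3 counts, the upper limit that a count of 0 allows, were 0.0240 to 0.0262 CPM, which covers counting error only. The 8 smooth muscle markers summed to 4442 to 6799 CPM and the 8 leukocyte markers to 6.26 to 9.83 CPM. Most of the smooth muscle sum was *Acta2* (2073 to 3547 CPM) and *Tagln* (1616 to 2449 CPM). *Myh11* had 75.0 to 338 CPM and *Cnn1* 118 to 237 CPM. *Tagln*, *Myh11* and *Cnn1* are named after their values were seen. The leukocyte genes *Adgre1*, *Itgam*, *Cd3e* and *Tyrobp* were too low to test, and the other 4 were tested. Of these, *Ptprc*, named after its values were seen, had 0.819 and 0.241 CPM in shCTR A and B and 0.514 and 0.431 CPM in shMettl14 A and B. The 8 endothelial markers were all detected and summed to 1891 to 4031 CPM, although the endothelium had been scraped off during isolation, so RNA with endothelial markers was present beside that of smooth muscle. The libraries are bulk RNA, in which fewer cells of a type and less RNA per cell cannot be told apart. Which cells the RNA of the 10 genes came from was not tested.

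Per length of exon, counted as all annotated exon bases of a gene merged, the pathway was most abundant at the receptor and the kinase. *Il6st* had a mean of 38.6 CPM per kilobase (range 35.0 to 41.9 over the 4 libraries) and *Jak1* 35.2 (30.7 to 38.6), and these ranges overlapped. *Stat3* followed with 24.8 CPM per kilobase (22.2 to 27.7), below both without overlap. *Osmr*, the chain that pairs with gp130 in the oncostatin M receptor, had 13.5 (10.2 to 16.9), *Il6* 10.5 (3.64 to 17.4), *Socs3* 9.34 (3.28 to 14.9) and *Jak2* 8.21 (7.40 to 9.21), and the ranges of *Il6* and *Socs3* overlapped those of the other 3, whereas every *Osmr* value was above every *Jak2* value. *Lif* had 5.23 CPM per kilobase (4.03 to 7.21), below every value of *Jak2* but within the ranges of *Il6* and *Socs3*. *Lifr*, the LIF receptor chain, had 1.46 (1.30 to 1.65), and *Il11* was the lowest with 0.761 (0.454 to 1.40), a range that overlapped that of *Lifr*. On this measure the order depended on the letter for *Il6* and *Socs3*, which lay above *Osmr* in both A libraries and below *Jak2* and *Osmr* in both B libraries. The merged exons of *Osmr* hold 12113 bases, but its longest coding transcript has 5491. For *Il6* these lengths are 2428 and 2343 bases and for *Socs3* 2891 and 2552. The place of *Osmr* beside *Il6* and *Socs3* in the A libraries therefore depends on the length used.

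**Figure D1:**
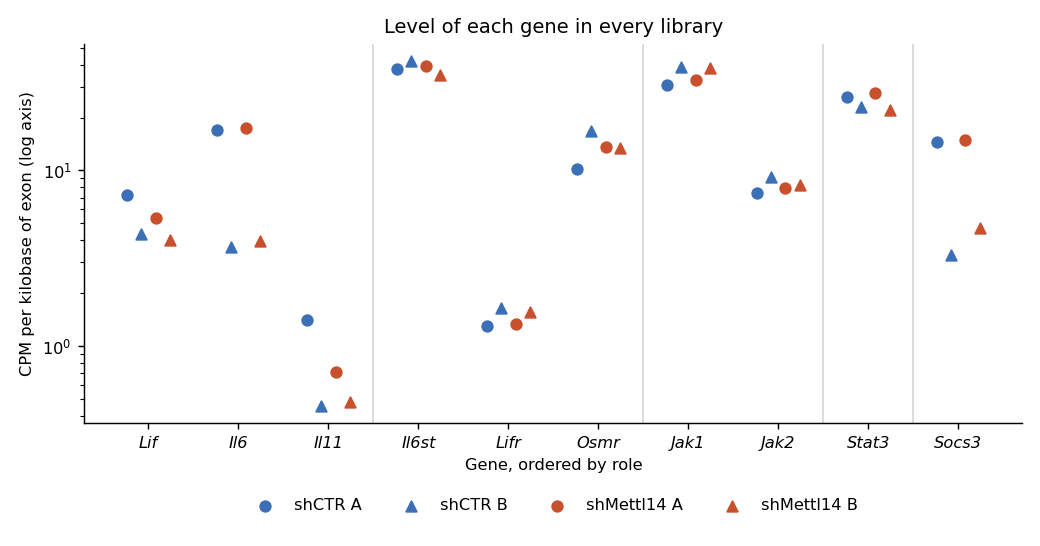
Level of the 10 genes in each library, in CPM per kilobase of exon on a log axis. Circles are letter A and triangles letter B, blue is shCTR and orange shMettl14, and vertical lines separate ligands, receptor chains, kinases, *Stat3* and *Socs3*. For *Il6* and *Socs3* the circles of both hairpins lie far above the triangles, whereas *Il6st* and *Jak1* stay between 30.7 and 41.9 in all 4 libraries.

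The first comparison asked whether loss of *Mettl14* altered the mRNA levels of the pathway. None of the 10 genes passed the test. In the edgeR fit of both shMettl14 libraries against both shCTR libraries, 0 of the 10 genes had an adjusted p under 0.05, where 0% of the 18916 genes tested did, and 0 had an unadjusted p under 0.05, against 1.67% (315) of all genes. DESeq2's Wald test also called 0 of the 10 genes, against 0.0211% (4) of all genes. The median log2 fold change of the 10 genes was -0.02, beside 0.01 for all genes tested, and their median absolute log2 fold change was 0.05, beside 0.23. With 2 libraries in each group the smallest two-sided p of an exact permutation test of a single gene is 0.333, so none is given.

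Among the ligands, *Il6* encodes the cytokine that gives the family its name. It had 41.2 CPM in shCTR A, 8.84 in shCTR B, 42.3 in shMettl14 A and 9.62 in shMettl14 B. The libraries of the 2 hairpins interleaved, and the level followed the letter. Its log2 fold change with shMettl14 was 0.05 (standard error 0.956, edgeR unadjusted p = 0.960 and adjusted p = 1.0), and its 95% interval was -2.41 to 2.51. This fit has no term for the letter, so the difference between the letters enters the standard errors and intervals given here for the hairpin. The log2 ratio of shMettl14 to shCTR was 0.04 between the A libraries and 0.12 between the B libraries, values of 1 library against 1 that have no test.

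*Lif* encodes leukaemia inhibitory factor, which signals through gp130 and the LIF receptor. Its levels were 31.4 CPM in shCTR A, 19.0 in shCTR B, 23.2 in shMettl14 A and 17.5 in shMettl14 B. Within each letter the shMettl14 library was the lower one, with log2 ratios of -0.44 for A and -0.12 for B, but shMettl14 A was above shCTR B, so that the groups overlapped. The log2 fold change was -0.31 (standard error 0.329, 95% interval -1.16 to 0.54, edgeR adjusted p = 1.0).

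*Il11* encodes a ligand that uses gp130 with its own receptor chain, and it was the least abundant of the 10 genes, with 330, 102, 176 and 130 counts in shCTR A, shCTR B, shMettl14 A and shMettl14 B. These are 2.91, 0.944, 1.48 and 0.9995 CPM. The library shCTR A was high and the other 3 lay between 0.944 and 1.48 CPM. The log2 ratio was therefore -0.96 in A and 0.08 in B, with a fitted value of -0.63 (standard error 0.649, 95% interval -2.30 to 1.04, edgeR adjusted p = 1.0). Without shCTR A the fitted value was 0.40, but the letters are then unequal, so the difference between the letters enters that value too. With a replicate block in edgeR the fitted value was -0.46. Only the ratio in A, which uses shCTR A, was negative.

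Among the receptor chains, *Il6st* and *Lifr* had narrower spreads than the ligands. In *Osmr* the shCTR libraries differed by -0.72 on the log2 scale (A minus B), a size like the 0.72 of *Lif*. *Il6st*, the common chain gp130, had 418 and 465 CPM with shCTR and 440 and 389 CPM with shMettl14 (A and B in each), and its log2 fold change was -0.09 (95% interval -0.59 to 0.41). *Osmr* had 124 and 204 CPM with shCTR and 166 and 162 CPM with shMettl14, so that both shMettl14 values lay between those of shCTR. Its log2 ratio was 0.42 in A and -0.34 in B, and the fitted log2 fold change of -0.0046 (95% interval -0.75 to 0.74) is the balance of these opposite values. *Lifr* had 14.1 and 17.7 CPM with shCTR and 14.3 and 16.8 CPM with shMettl14, and a log2 fold change of -0.03 (95% interval -0.68 to 0.62). The groups overlapped for each of the 3 chains, and each chain had ratios of opposite sign in the 2 letters.

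The kinases and *Stat3* had narrower intervals than the ligands. *Jak1*, the kinase on which gp130 signalling mainly relies, had 222 and 279 CPM with shCTR and 238 and 277 CPM with shMettl14 (A and B in each). *Jak2*, a second kinase bound to gp130, had 37.2 and 46.3 CPM with shCTR and 40.0 and 41.7 CPM with shMettl14. *Stat3* had 248 and 220 CPM with shCTR and 264 and 211 CPM with shMettl14. All 3 genes had overlapping groups, and the log2 fold changes were 0.04 for *Jak1* (95% interval -0.52 to 0.61), -0.03 for *Jak2* (-0.58 to 0.51) and 0.02 for *Stat3* (-0.53 to 0.57). The intervals of all 3 genes stayed within 0.61 of 0 on the log2 scale.

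*Socs3*, the feedback inhibitor, had 41.9 CPM in shCTR A, 9.49 in shCTR B, 43.1 in shMettl14 A and 13.6 in shMettl14 B. As for *Il6*, both A libraries were high and both B libraries low, whichever hairpin they carried. The log2 ratio of shMettl14 to shCTR was 0.04 in A and 0.51 in B, and the fitted log2 fold change was 0.14 (standard error 0.853, 95% interval -2.06 to 2.34, edgeR adjusted p = 1.0).

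**Figure D2:**
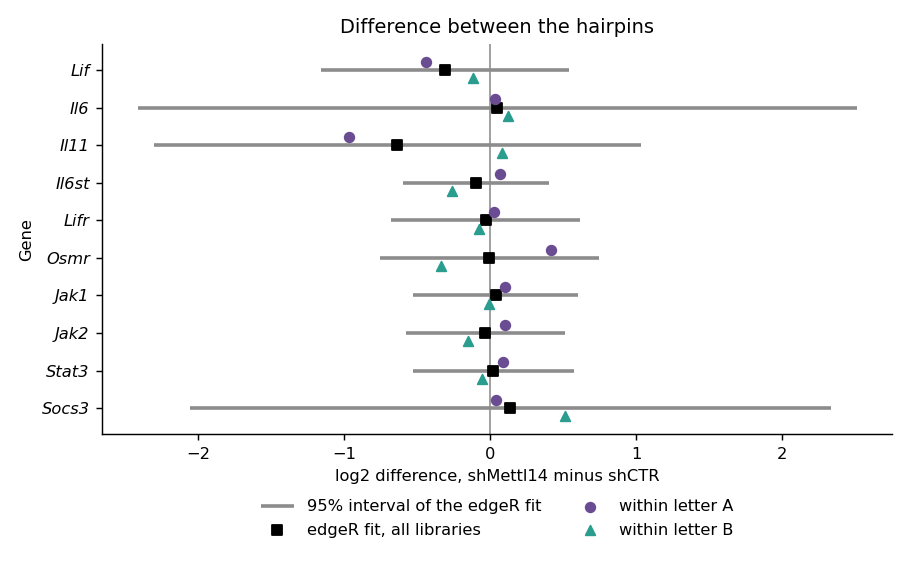
Difference between the hairpins for the 10 genes, as the log2 difference of shMettl14 minus shCTR. Black squares with grey bars are the edgeR fit and its 95% interval, purple circles the ratio within letter A and green triangles the ratio within letter B. Every interval includes 0, and those of *Il6* and *Socs3* are the widest, from -2.41 to 2.51 and from -2.06 to 2.34.

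Read by direction alone, *Il6* and *Socs3* had a higher value with shMettl14 within both letters, which is 2 of 10 genes against 30.0% of all genes tested. *Lif* was lower within both letters, 1 of 10 against 27.6%. The other 7 genes had opposite signs in the letters, against 42.1%. In 0 of 10 genes were both shMettl14 libraries above both shCTR libraries, against 14.7% of all genes, and in 0 of 10 were both below, against 13.3%.

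The other genes of the pathway were read from lists by role, 67 genes of which 60 could be tested. Of these 60 genes, 0 passed an adjusted p of 0.05 between the hairpins in edgeR, where 0% of all genes tested did. At an unadjusted p under 0.05 there were 0, against 1.67% of all genes, and DESeq2 called 0, against 0.0211%. Of the other ligands 5 of 8 were tested (*Osm*, *Ebi3* and *Il31* were too low), with a median log2 fold change of -0.49 beside 0.01 for all genes. Within both letters 4 of the 5 were lower with shMettl14, against 27.6% of all genes tested. *Ctf1*, cardiotrophin 1, had 1.95 and 2.03 CPM with shCTR and 1.43 and 1.32 CPM with shMettl14 (log2 fold change -0.53, 95% interval -1.48 to 0.41). *Il27*, whose groups did not overlap either, was near the limit of detection, at 0.132 and 0.0926 CPM with shCTR and 0.0505 and 0.0538 CPM with shMettl14.

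Of the other receptor chains 4 of 5 were tested, with a median log2 fold change of 0.21. *Il6ra*, the chain that binds IL-6 itself, had 16.7 and 11.7 CPM with shCTR and 27.8 and 17.8 CPM with shMettl14. Both shMettl14 libraries were above both shCTR libraries, the log2 ratio being 0.73 in A and 0.61 in B, but the log2 fold change of 0.68 (standard error 0.334, 95% interval -0.18 to 1.54) had an edgeR unadjusted p of 0.0967. *Il11ra1*, the chain for IL-11, which is named after its values were seen, had 59.2 and 41.9 CPM with shCTR and 43.5 and 32.6 CPM with shMettl14, with groups that overlapped.

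The other 8 JAK and STAT genes had a median log2 fold change of -0.08. *Stat6*, which serves IL-4 and IL-13, had 113 and 108 CPM with shCTR and 111 and 95.03 CPM with shMettl14. *Stat2*, a part of the interferon-induced transcription factor, had 67.4 and 59.9 CPM with shCTR and 57.3 and 39.4 CPM with shMettl14, and its groups did not overlap. Of the 15 other negative regulators 14 were tested, with a median of 0.11. Within both letters 8 of the 14 were higher with shMettl14, against 30.0% of all genes tested, and 3 lower, against 27.6%. *Socs7* and *Socs6*, relatives of *Socs3* named after their values were seen, did not overlap between the groups: *Socs7* had 28.4 and 22.7 CPM with shCTR and 38.6 and 32.4 CPM with shMettl14, and *Socs6* 31.96 and 31.4 CPM against 40.5 and 42.3 CPM. Their log2 fold changes were 0.48 (95% interval -0.12 to 1.07) and 0.39 (-0.10 to 0.87). *Ptpn2*, a phosphatase gene of the same list also named after its values were seen, did not overlap in the other direction, with 24.5 and 29.4 CPM with shCTR and 21.2 and 23.0 CPM with shMettl14 (log2 fold change -0.29, 95% interval -0.84 to 0.27). The most abundant genes of this list, the phosphatase gene *Ptpn1* (104 and 73.6 CPM with shCTR, 114 and 89.5 CPM with shMettl14) and *Socs5* (105 and 67.0 CPM, 81.3 and 62.2 CPM), overlapped.

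The 6 relay genes, which carry the signal from the receptor to the Ras and PI3K pathways, had a median log2 fold change of -0.15. The adaptor gene *Shc1* had 297 and 284 CPM with shCTR and 281 and 299 CPM with shMettl14, and the phosphatase gene *Ptpn11* 286 and 253 CPM against 339 and 281 CPM, and in both the groups overlapped. A list of 25 STAT3-responsive genes, of which 23 were tested, had a median of -0.13. Within both letters 1 of the 23 was higher and 7 were lower, against 30.0% and 27.6% of all genes tested. *Steap4*, the only gene of that list named by the rule, was near the limit of detection, at 0.255 and 0.176 CPM with shCTR and 0.168 and 0.115 CPM with shMettl14. Over all 60 genes both shMettl14 libraries were above both shCTR libraries in 3 genes and below in 8, against 14.7% and 13.3% of all genes tested. The smooth muscle marker *Acta2*, at 3547 and 2799 CPM with shCTR and 2171 and 2073 CPM with shMettl14, was lower in the shMettl14 libraries (unadjusted p = 0.038 and adjusted p = 1.0 in edgeR). *Des* was lower too, at 2.20 and 2.56 CPM against 0.623 and 2.02 CPM, with an unadjusted p of 0.24 in edgeR. All 8 smooth muscle markers had a fitted log2 fold change below 0, and 6 were lower within both letters, against 27.6% of all genes tested. The part of these differences in the values of the pathway genes was not tested.

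**Figure D3:**
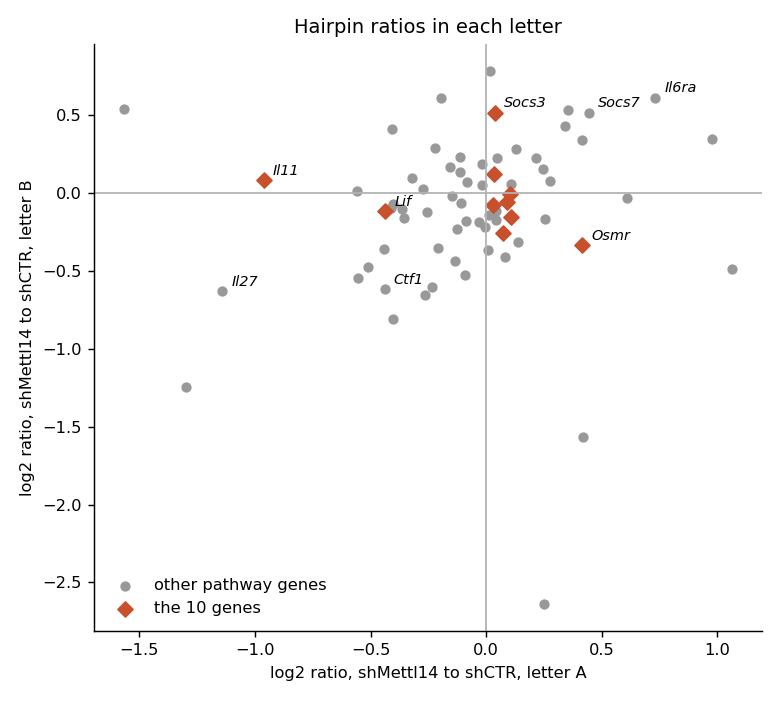
Log2 ratio of shMettl14 to shCTR in letter A (horizontal axis) and letter B (vertical axis) for the 10 genes (orange diamonds) and the 60 other pathway genes tested (grey circles). The 10 genes lie near the origin apart from *Il11* (-0.96 in A), *Osmr* (0.42 and -0.34), *Lif* (-0.44 in A) and *Socs3* (0.51 in B), whereas *Il6ra* (0.73 and 0.61) is far from 0 in both letters.

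The second comparison asked how far the libraries of one hairpin differed from each other. The 10 genes and the lists below were chosen with earlier results of these data known. Their shares beside those of all genes are therefore descriptions and not tests. The absolute difference between the letters was larger than that between the hairpins in 9 of the 10 genes, against 65.4% of all genes tested. An edgeR fit of letter A against letter B with the hairpin as covariate called 3 of the 10 genes higher in A (*Lif*, *Il6* and *Socs3*), against 8.95% of all genes, and 0 of 10 lower in A, against 6.69%. Both A libraries were above both B libraries in 5 of the 10 genes (the called genes, *Il11* and *Stat3*), against 28.8% of all genes, and below them in 3 (*Lifr*, *Jak1* and *Jak2*), against 27.2%. The median difference, A minus B, was 0.13 on the log2 scale for the 10 genes and 0.02 for all genes tested.

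*Il6* was 4.66 times as high in A as in B with shCTR and 4.39 times with shMettl14. The log2 difference was 2.18 (standard error 0.167, 95% interval 1.81 to 2.55, edgeR adjusted p = 1.5e-05), and it remained between 2.12 and 2.25 with each library left out in turn. *Socs3* was 4.41 times as high in A with shCTR and 3.18 times with shMettl14, with a log2 difference of 1.90 (standard error 0.181, 95% interval 1.50 to 2.30, edgeR adjusted p = 6.5e-05). The ligand and the feedback inhibitor thus differed between the letters by a similar factor, and their intervals overlapped.

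*Lif* was 1.65 times as high in A with shCTR and 1.32 times with shMettl14. Its log2 difference of 0.56 (standard error 0.168, 95% interval 0.19 to 0.94) had an edgeR adjusted p of 0.0448, close to the threshold. The call was lost without the hairpin covariate (adjusted p = 0.114). It was also lost in fits without the covariate that left out any 1 of the 4 libraries, the values then being 0.35 without shCTR A, 0.64 without shCTR B, 0.79 without shMettl14 A and 0.54 without shMettl14 B, with adjusted p from 0.123 to 0.671. *Il11* was 3.08 times as high in A with shCTR but 1.48 times with shMettl14, and its log2 difference of 1.10 (95% interval 0.29 to 1.90) missed the threshold (adjusted p = 0.0679). The receptor chains and kinases had log2 differences between -0.34 and 0.01, and *Stat3* 0.25 (95% interval -0.10 to 0.59, adjusted p = 0.333), none past the test. The calls among the 10 genes thus fell on 2 ligands and the inhibitor, and whether these differed from the receptor chains and kinases was not tested.

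**Figure D4:**
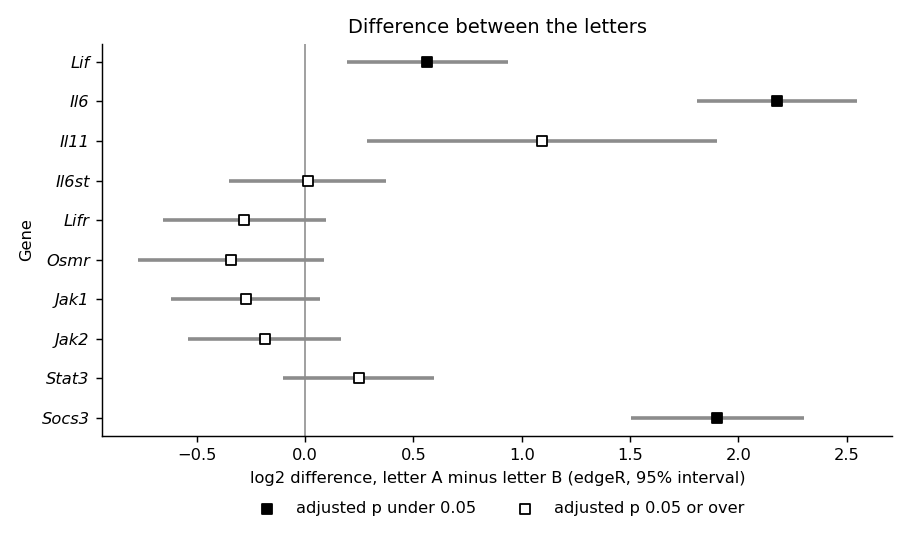
Difference between the letters for the 10 genes, as the log2 difference of A minus B from the edgeR fit with the hairpin as covariate. Bars are 95% intervals, filled squares have an adjusted p under 0.05 and open squares do not. *Il6* (2.18) and *Socs3* (1.90) lie far to the right of the other genes, and the receptor chains, the kinases and *Stat3* lie between -0.34 and 0.25.

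The stretches of DNA before the starts of the 3 called genes are shown because they hold the only matches, besides that of *Il11*, to 4 short motifs among the 10 genes. The sequences are the 250 bases before the RefSeq transcription start on GRCm38.p6, read 5′ to 3′ on the strand of the gene, with the matches in capitals.
Socs3 (chr11:117969367-117969616, minus strand): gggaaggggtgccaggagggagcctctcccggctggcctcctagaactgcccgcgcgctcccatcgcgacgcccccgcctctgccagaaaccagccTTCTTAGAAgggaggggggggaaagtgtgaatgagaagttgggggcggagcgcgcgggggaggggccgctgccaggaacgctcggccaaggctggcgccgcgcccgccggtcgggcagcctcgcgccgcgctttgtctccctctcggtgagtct
Il6 (chr5:30012864-30013113, plus strand): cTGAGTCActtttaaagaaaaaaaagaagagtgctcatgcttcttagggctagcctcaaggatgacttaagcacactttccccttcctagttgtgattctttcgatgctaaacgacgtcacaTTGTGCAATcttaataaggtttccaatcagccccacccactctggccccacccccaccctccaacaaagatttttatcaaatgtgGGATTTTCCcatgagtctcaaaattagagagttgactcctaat
Lif (chr11:4257318-4257567, plus strand): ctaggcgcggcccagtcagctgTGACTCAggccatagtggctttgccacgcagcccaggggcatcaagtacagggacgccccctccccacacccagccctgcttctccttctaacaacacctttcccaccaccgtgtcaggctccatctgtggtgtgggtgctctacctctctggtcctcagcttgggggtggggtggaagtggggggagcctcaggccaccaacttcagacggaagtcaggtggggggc

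In *Socs3* the capitals mark TTCTTAGAA, 154 to 146 bases before the start, a match to the STAT motif TTCNNNGAA. In *Il6* they mark, from left to right, the AP-1 motif TGANTCA at 249 to 243 bases, the C/EBP motif TTNNGCAAT at 128 to 120 bases and the NF-kB motif GGANTTTCC at 43 to 35 bases before the start. In *Lif* they mark an AP-1 match at 228 to 222 bases, and *Il11* has 1 AP-1 match, TGAGTCA, at 98 to 92 bases before one of its starts (chr7:4778142-4778391 holds the 250 bases before it, minus strand). Both strands were searched, and no match overlapped another. The windows ran from 250 bases before to 50 after the start, but only the 250 bases before it were searched, also for the shares below. Promoter windows were found for all 10 genes, and *Il6st*, *Lifr*, *Osmr*, *Jak1*, *Jak2* and *Stat3* had no match to these letters. Over all 32851 windows, 7.02% held the STAT motif, 6.75% the AP-1 motif, 1.93% the C/EBP motif and 1.07% the NF-kB motif. The last 3 motifs were chosen after the expression values had been seen, and a match of letters does not show that a factor binds there.

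Many genes of the STAT3-responsive list were also higher in letter A. As background, several of them also respond to other inflammatory signals, and phosphorylated STAT3 was not measured in these libraries. The list was chosen with earlier results of these data known, so its shares are a description and not a test of the list. Of the 23 tested genes of this list, 11 (47.8%) were called higher in A, against 8.95% of all genes, and 1 (*Lcn2*) lower. The median log2 difference of the list was 0.59, beside 0.02 for all genes tested, and both A libraries were above both B libraries in 14 of the 23, against 28.8% of all genes, and below them in 5, against 27.2%. In all 12 genes of the list were called in either direction, and 9 without the hairpin covariate. In fits without the covariate that also left out shCTR A 5 were called, and 6 with shMettl14 A left out. The genes below are named after their values were seen.

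*Cebpb*, a transcription factor gene of the acute-phase response, had 112 CPM in shCTR A, 22.7 in shCTR B, 102 in shMettl14 A and 16.8 in shMettl14 B. Its log2 difference of 2.46 (standard error 0.170, edgeR adjusted p = 7.5e-06) was the largest of the list, ahead of *Cebpd* (1.85, with 184, 55.0, 184 and 47.3 CPM in the same order), *Bcl3* (1.82) and *Junb* (1.62). Exons on the opposite strand overlap 20.7% of *Cebpb* and 15.0% of *Cebpd*, so reads could be shared if the counting did not use strand. *Timp1*, which encodes a secreted inhibitor of matrix metalloproteinases, had 648, 240, 439 and 242 CPM and a log2 difference of 1.15 (standard error 0.182). *Lcn2*, which encodes lipocalin 2, went the other way, at 2.85, 6.78, 2.16 and 3.85 CPM, with a log2 difference of -1.04 (standard error 0.248). The other called genes were *Serpina3n* (1.33), *Pim1* (0.99), *Nfil3* (0.79), *Il4ra* (0.73), *Vegfa* (0.64) and *Pim3* (0.59), all higher in A.

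**Figure D5:**
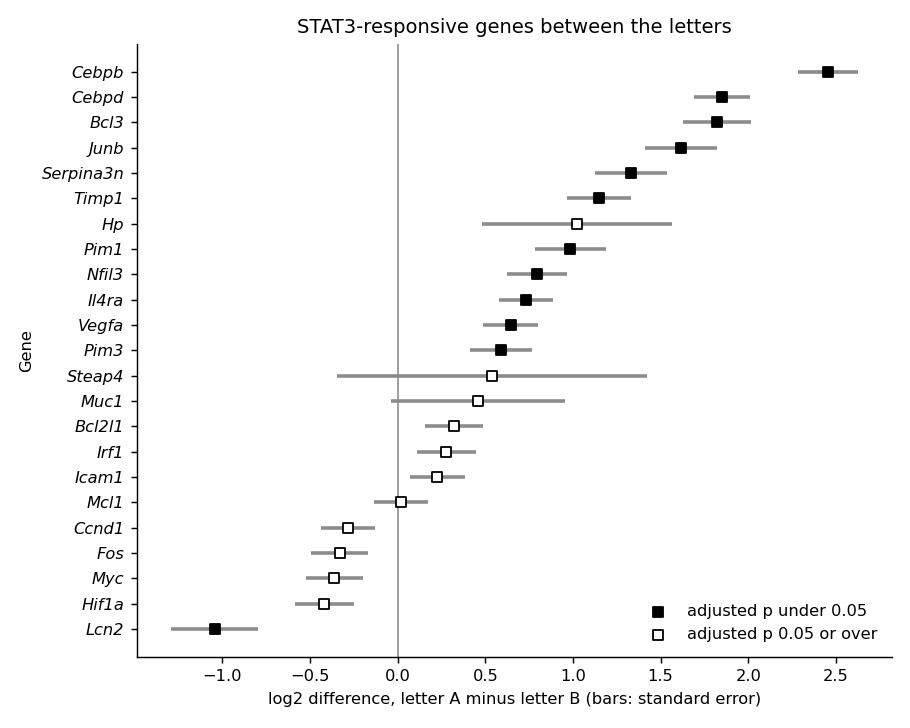
Difference between the letters for the 23 STAT3-responsive genes tested, as the log2 difference of A minus B, ordered by size. Bars are standard errors, filled squares have an adjusted p under 0.05 and open squares do not. The 11 called genes above 0 run from 0.59 (*Pim3*) to 2.46 (*Cebpb*), and *Lcn2* (-1.04) is the only called gene below 0.

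In the other lists fewer genes differed between the letters. The genes of this paragraph other than *Il6ra* are named after their values were seen. *Clcf1*, a ligand gene that shares 8.17% of its exon bases with another gene on its own strand, was higher in A (113, 61.0, 85.2 and 57.9 CPM in shCTR A, shCTR B, shMettl14 A and shMettl14 B, adjusted p = 0.0136), as was *Il6ra* (log2 difference 0.58, adjusted p = 0.0401). *Socs1*, a relative of *Socs3* that binds the kinases directly, had 3.07, 0.574, 3.93 and 0.838 CPM, a log2 difference of 2.32 (standard error 0.309, adjusted p = 0.00062). It was the only 1 of the 14 other negative regulators to pass the test. *Jak3*, the kinase of the common gamma chain cytokines, was called higher in A, and *Sos1*, which encodes an activator of Ras, lower. Over all 60 other genes 16 were called higher in A and 3 lower, against 8.95% and 6.69% of all genes tested, and 11 and 1 of them are genes of the STAT3-responsive list. Outside that list 5 of 37 genes were called higher in A and 2 of 37 lower, both of the latter among the 6 relays.

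Cell type markers also differed between the letters. The endothelial markers summed to 2041 and 1891 CPM in the A libraries of shCTR and shMettl14 and to 4031 and 2528 CPM in the B libraries, and 6 of the 8 were lower in both A libraries than in both B libraries, against 27.2% of all genes tested. The other 2, *Egfl7* (209, 118, 170 and 120 CPM in shCTR A, shCTR B, shMettl14 A and shMettl14 B, adjusted p = 0.0194) and *Tie1* (171, 136, 158 and 135 CPM), named after their values were seen, were higher in both A libraries. The most abundant of them, *Emcn*, had 649, 2099, 484 and 1077 CPM in shCTR A, shCTR B, shMettl14 A and shMettl14 B, and *Cdh5* had 508, 818, 567 and 617 CPM. Among the smooth muscle markers, named after their values were seen, *Myh11* was higher in A (338, 101, 233 and 75.0 CPM) and the regulator gene *Myocd* lower (0.546, 7.10, 0.918 and 6.60 CPM), while the list summed to 6799 and 4442 CPM in A and 5772 and 4811 CPM in B. The leukocyte markers summed to 9.83 and 7.53 CPM in A and 7.21 and 6.26 CPM in B, with *Cd68* at 3.54 to 4.73 CPM. *Csf1r* had 4.11 and 3.28 CPM in A and 2.13 and 1.49 CPM in B and was called higher in A (log2 difference 1.04, edgeR adjusted p = 0.0256). The adventitial fibroblast markers summed to 322 and 328 CPM in A and 366 and 412 CPM in B, with *Ly6a* at 195 to 282 CPM. *Dcn* had 68.3 and 72.3 CPM in A and 160 and 120 CPM in B and was called lower in A (log2 difference -0.98, edgeR adjusted p = 0.0036). The part of these markers in the letter difference of *Il6* and *Socs3* was not tested.

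The base word GGACT, a common form of the site at which the Mettl3-Mettl14 complex methylates RNA, was counted in the longest coding transcript of each gene. *Il11* had 2.05 copies per kilobase (4 copies in 1949 bases), *Lif* 1.74 (7 copies in 4026 bases) and *Jak1* 1.43 (7 copies), all above the median of 1.05 over 14367 genes. *Socs3* had 1.18 and *Il6st* 1.15 copies per kilobase, close to that median. *Osmr* (0.911), *Il6* (0.854), *Lifr* (0.829), *Jak2* (0.795) and *Stat3* (0.497, 3 copies in 6042 bases) were below it, and *Stat3* was also below the lower quartile of 0.643. *Il11* and *Lif* lay above the upper quartile of 1.52. The word count was added after the values were seen, it gives letters in a sequence and not methylation, and no m6A measurement was used.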

How the data were processed

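The samples were 4 poly-A mRNA-seq libraries of primary mouse VSMCs, shCTR A and B and shMettl14 A and B. The deposited values are counts per gene, which the authors made with STAR and featureCounts on GRCm38 (named mm10 in the submitters' processing notes, without versions), with no normalization. The sources used here do not state whether counting used strand. Differences were tested on the whole table with edgeR 4.0.16 in R 4.3.3 (TMM, filterByExpr, robust quasi-likelihood fit), with Benjamini-Hochberg adjustment over 18916 genes and a threshold of 0.05, and the test was checked on simulated data. The hairpin fit had no block, and the letter fit had the hairpin as covariate. Within-letter log2 ratios used a prior count of 2. Standard errors and 95% intervals come from the fitted log2 fold change and its F statistic. DESeq2 1.42.0, other scalings and filters, a replicate block and leaving out each library were alternatives. Places and exon lengths came from GENCODE M21 and promoters from RefSeq (GRCm38.p6). Figures used matplotlib 3.10.9.

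The 10 genes and all lists were chosen with earlier results of these data known. Apart from them and *Mettl14*, the rule named list genes with an unadjusted p under 0.05, or non-overlapping groups and an absolute log2 fold change of at least 0.5, and in lists without such a gene the 2 most abundant. Other names are said to be later choices. Some genes of the lists are not reported here.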

Additional observations from a re-analysis of the deposited data

How the results depend on the processing

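Between the hairpins, genes called over the whole table numbered 0 in the edgeR fit, 4 with DESeq2, 9 with a replicate block in edgeR, 124 with a replicate block in DESeq2 and 0 to 1 with a library left out. The 10 genes and the other pathway genes had 0 calls in each of these fits. *Mettl14* had log2 fold changes of -2.09 (DESeq2, adjusted p = 2.0e-09), -2.08 (block in edgeR, 0.0039) and -2.09 (block in DESeq2, 1.6e-14), and -2.15 to -2.01 with a library left out. Same-letter libraries deviated together (correlation 0.578 over genes), but with 2 pairs and letters of no stated meaning the block remains an alternative. It left the lowest adjusted p of the 10 genes at 0.626 (*Lif*) in edgeR.

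The *Osmr* hairpin difference turned to 0.012 (upper-quartile factors), 0.013 (no filter), 0.0069 (a minimum of 10 counts per library), 0.039 (block in edgeR) and 0.030 (block in DESeq2). With a library left out, which makes the letters unequal, the hairpin difference ran from -0.63 to 0.10 for *Lif*, -1.38 to 1.56 for *Il6*, -1.23 to 0.40 for *Il11*, -0.18 to 0.14 for *Lifr*, -0.32 to 0.40 for *Osmr*, -0.11 to 0.21 for *Jak1*, -0.18 to 0.13 for *Jak2*, -0.15 to 0.18 for *Stat3* and -0.93 to 1.58 for *Socs3*, so 9 of the 10 genes changed sign, *Il6st* being the exception.

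Between the letters 2958 genes were called, 1715 without the hairpin covariate and 495 to 3456 with a library left out. Of the STAT3-responsive genes 12 were called, 9 without the covariate and 5 to 12 with a library left out. The letter alternatives were chosen after seeing the data, and those that leave out a library also drop the covariate, since no residual degrees of freedom would remain. *Il6* and *Socs3* were called in every one of them, *Lif* lost its call with upper-quartile factors (adjusted p = 0.067) and without the covariate (0.114), and *Il11* gained one without the filter (0.0215). *Il6st* turned to -0.025 with upper-quartile factors and ran from -0.10 to 0.14 with a library left out. The causes were not tested.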
